A study of Homo sapiens with 19 samples.

Results

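The bone morphogenetic protein (BMP) and inhibitor of DNA binding (ID) genes examined here are 10 genes: the ligands BMP2 and BMP4, the secreted antagonists CHRDL1 and GREM1, the inhibitory SMADs SMAD6 and SMAD7, and the targets ID1, ID2, ID3 and ID4. They were selected by symbol from the 23441 gene symbols of the RNA-seq count table, with the levels after HIF-1α re-expression already known, in which ID3 was lower and BMP4 and CHRDL1 were higher than in control cells. For that contrast the values of the 10 genes are therefore given as a description, without a test. All 10 were in the table. Of these, 9 passed edgeR's filter on low counts, as did 14225 symbols in all, and GREM1 did not.

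The cells were 786-O, an established clear cell renal carcinoma line that lacks functional VHL and in which endogenous HIF-2α is therefore present without hypoxia. Pools of these cells were transduced with a lentiviral vector that was empty (pRRL, control cells), that carried HIF-1α cDNA (HIF-1α re-expressing cells) or that carried HIF-2α cDNA (HIF-2α overexpressing cells), each vector also encoding EGFP. Every pool keeps its endogenous HIF-2α and, by the study's account, truncated HIF1A transcripts that would not encode an active protein, so neither HIF-α isoform was studied alone. RNA-seq was done on 3 libraries of each pool. ChIP-seq used antisera to the HIF-α isoforms and to their partner HIF-1β, with 1 library per antiserum and pool. There were 7 such libraries, each with a list of peaks. HIF-2α and HIF-1β were profiled in every pool and HIF-1α in HIF-1α re-expressing cells only. The pools were not clones, and whether the 3 libraries of a pool came from separate transductions or cultures is not given in the sources used here, so that tests over them measure the spread between these libraries, which may be technical.

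BMPs are secreted ligands of the TGF-β superfamily that signal through type I and type II serine/threonine kinase receptors. The receptors phosphorylate SMAD1, SMAD5 and SMAD9, which enter the nucleus with SMAD4 and activate target genes, among which the ID genes are the most widely used readout. ID proteins are helix-loop-helix proteins without a basic region, and they sequester E proteins such as TCF3 so that these cannot bind DNA with their partners. The pathway is restrained outside the cell by antagonists that bind the ligands (Noggin, Gremlin, Chordin and its relatives, such as the product of CHRDL1) and inside it by SMAD6 and SMAD7, which are themselves SMAD-induced. In the kidney, BMP ligands and their antagonists act in nephron and ureter development and have been studied in fibrosis.

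HIF peaks were called near 6 of the 10 genes, and 5 stretches of 300 bp around peak midpoints are shown because they carry the contrasts between the peak lists that are described below. All are in GRCh37, on the plus strand, and with midpoints outside annotated exons. Capitals mark the core of the hypoxia response element (HRE), the letters ACGTG or GCGTG read on either strand, and CACGTG holds ACGTG once on each strand, overlapping. The first is the HIF-1α peak of HIF-1α re-expressing cells beyond the 3′ end of ID3, at chr1:23881055-23881354, between genes.
ID3_HIF-1α: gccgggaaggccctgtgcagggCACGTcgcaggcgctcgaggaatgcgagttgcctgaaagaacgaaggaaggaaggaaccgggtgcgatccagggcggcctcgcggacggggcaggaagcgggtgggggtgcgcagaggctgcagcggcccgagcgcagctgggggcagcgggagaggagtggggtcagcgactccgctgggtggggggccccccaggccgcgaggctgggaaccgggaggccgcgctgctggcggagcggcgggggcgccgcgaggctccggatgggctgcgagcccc
The second is the HIF-2α peak of HIF-2α overexpressing cells at the same site, at chr1:23881332-23881631, whose midpoint lay closer to the gene.
ID3_HIF-2α: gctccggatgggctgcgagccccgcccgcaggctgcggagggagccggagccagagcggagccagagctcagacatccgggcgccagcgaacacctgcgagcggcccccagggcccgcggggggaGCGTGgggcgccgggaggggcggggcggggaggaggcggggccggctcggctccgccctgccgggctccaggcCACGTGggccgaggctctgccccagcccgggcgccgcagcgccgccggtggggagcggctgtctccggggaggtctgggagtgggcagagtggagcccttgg
The third is the HIF-1α peak in an intron of BMP2, at chr20:6749920-6750219, a site that was called in HIF-1α re-expressing cells alone.
BMP2_HIF-1α: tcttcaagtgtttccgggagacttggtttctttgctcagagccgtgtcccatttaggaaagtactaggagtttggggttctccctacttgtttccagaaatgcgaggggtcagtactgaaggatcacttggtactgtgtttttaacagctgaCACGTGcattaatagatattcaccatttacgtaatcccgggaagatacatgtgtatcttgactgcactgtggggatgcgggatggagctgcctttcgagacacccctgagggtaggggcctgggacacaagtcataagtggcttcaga
The fourth is the HIF-2α peak of control cells upstream of BMP2, at chr20:6699362-6699661, between genes, which was called in control and HIF-2α overexpressing cells and not after HIF-1α re-expression.
BMP2_HIF-2α: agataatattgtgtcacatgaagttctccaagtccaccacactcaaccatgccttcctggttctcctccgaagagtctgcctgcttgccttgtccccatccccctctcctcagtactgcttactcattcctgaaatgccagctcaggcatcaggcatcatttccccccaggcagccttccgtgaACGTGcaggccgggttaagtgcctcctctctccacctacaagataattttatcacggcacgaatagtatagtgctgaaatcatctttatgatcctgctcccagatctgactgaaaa
The fifth is the HIF-1α peak just upstream of SMAD6, at chr15:66993587-66993886, a promoter site without a HIF-2α peak in any pool.
SMAD6_HIF-1α: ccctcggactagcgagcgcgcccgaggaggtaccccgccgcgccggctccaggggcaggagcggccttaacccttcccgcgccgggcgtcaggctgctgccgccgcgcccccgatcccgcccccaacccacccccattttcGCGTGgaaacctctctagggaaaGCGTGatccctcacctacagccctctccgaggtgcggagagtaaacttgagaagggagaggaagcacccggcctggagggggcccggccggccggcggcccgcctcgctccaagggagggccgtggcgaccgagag

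Library totals ran from 27852754 to 54287621 counts, so that for genes above a few counts the spread between libraries, and not counting error, limits the precision. HIF1A, whose cDNA the HIF-1α vector carries and whose reads may come from either source, had 171.5, 1682 and 472.6 CPM (counts scaled to the size of the library) in replicates 1, 2 and 3 of HIF-1α re-expressing cells, and 15.3 to 30.4 CPM in HIF-2α overexpressing cells. In control cells it had 30.4, 36.7 and 151.6 CPM, so that control replicate 3 stood close to the lowest HIF-1α library. EPAS1, which encodes HIF-2α, had 162.1 to 455.9 CPM in control cells, 397.1 to 627.1 in HIF-1α re-expressing cells and 879.8 to 3244 in HIF-2α overexpressing cells. Against control the log2 change was 3.41 (SE 0.87) for HIF1A after HIF-1α re-expression (edgeR adjusted p = 0.149, and 0.0418 with the replicate number as a block) and 2.59 (SE 0.57) for EPAS1 after HIF-2α overexpression (adjusted p = 0.490, and 0.0690 with the block). Renal lineage was visible in PAX8, a nephric transcription factor, at 175.5 to 363.8 CPM, although LRP2, a proximal tubule receptor, stayed under 1 CPM in every library. The 8 renal lineage markers summed to 469 to 980 CPM in control cells, 384 to 837 with HIF-1α and 286 to 479 with HIF-2α. The immune markers PTPRC, CD3E and ITGAM were under 1 CPM in all libraries, as were all 4 endothelial markers and, among 4 fibroblast and pericyte markers, DCN. The other 3 of that list passed the filter on low counts. The list summed to 2.69 to 9.51 CPM in control cells, 2.52 to 19.2 with HIF-1α and 1.73 to 15.4 with HIF-2α. CD68, a lysosomal glycoprotein gene on the immune list, was expressed in every library, at 28.6 to 156.0 CPM in control cells, 55.4 to 160.3 with HIF-1α and 107.4 to 158.3 with HIF-2α. The summed mesenchymal markers (VIM, CDH2 and FN1) reached 16700 to 29400 CPM with HIF-1α, 8480 to 12000 CPM in control cells and 6310 to 10300 CPM with HIF-2α, and the 5 epithelial markers summed to 619 to 817, 1030 to 1100 and 507 to 851 CPM in the same order of pools. Not every epithelial marker went with its sum. With HIF-1α against control, the fit with the replicate block called CDH1 higher and KRT18 lower. FN1, called higher, was the only mesenchymal call there, and neither list had a call without the block. The median log2 differences with the block were -0.33 for the epithelial and 0.34 for the mesenchymal list. The levels of these markers thus differed between the pools, and whether they had a part in the differences described below was not tested.

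In control cells the ID genes were the most abundant of the 10 per unit of length, except ID4. As CPM per kb of annotated exon (mean ± SD, n = 3), ID1 stood at 56.8 ± 30.2, ID2 at 49.1 ± 8.79 and ID3 at 38.6 ± 20.3, and the libraries of these 3 overlapped. CHRDL1 followed at 15.4 ± 9.21 and overlapped ID3. SMAD7 at 9.34 ± 0.32 and BMP2 at 5.12 ± 1.28 each stood apart from their neighbours, and SMAD6 at 0.69 ± 0.20, ID4 at 0.63 ± 0.35 and BMP4 at 0.19 ± 0.18 overlapped one with the next. GREM1 came last at 0.0023 ± 0.0040. In HIF-1α re-expressing cells CHRDL1 headed the order at 57.8 ± 21.7 CPM per kb, above every library of ID2 at 25.7 ± 3.21, and ID3 at 7.98 ± 2.58 overlapped SMAD7 and BMP2 instead of ID1. In HIF-2α overexpressing cells ID2 was first at 47.2 ± 7.92 and CHRDL1 at 6.14 ± 3.46 overlapped both SMAD7 and BMP2.

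**Figure D1:**
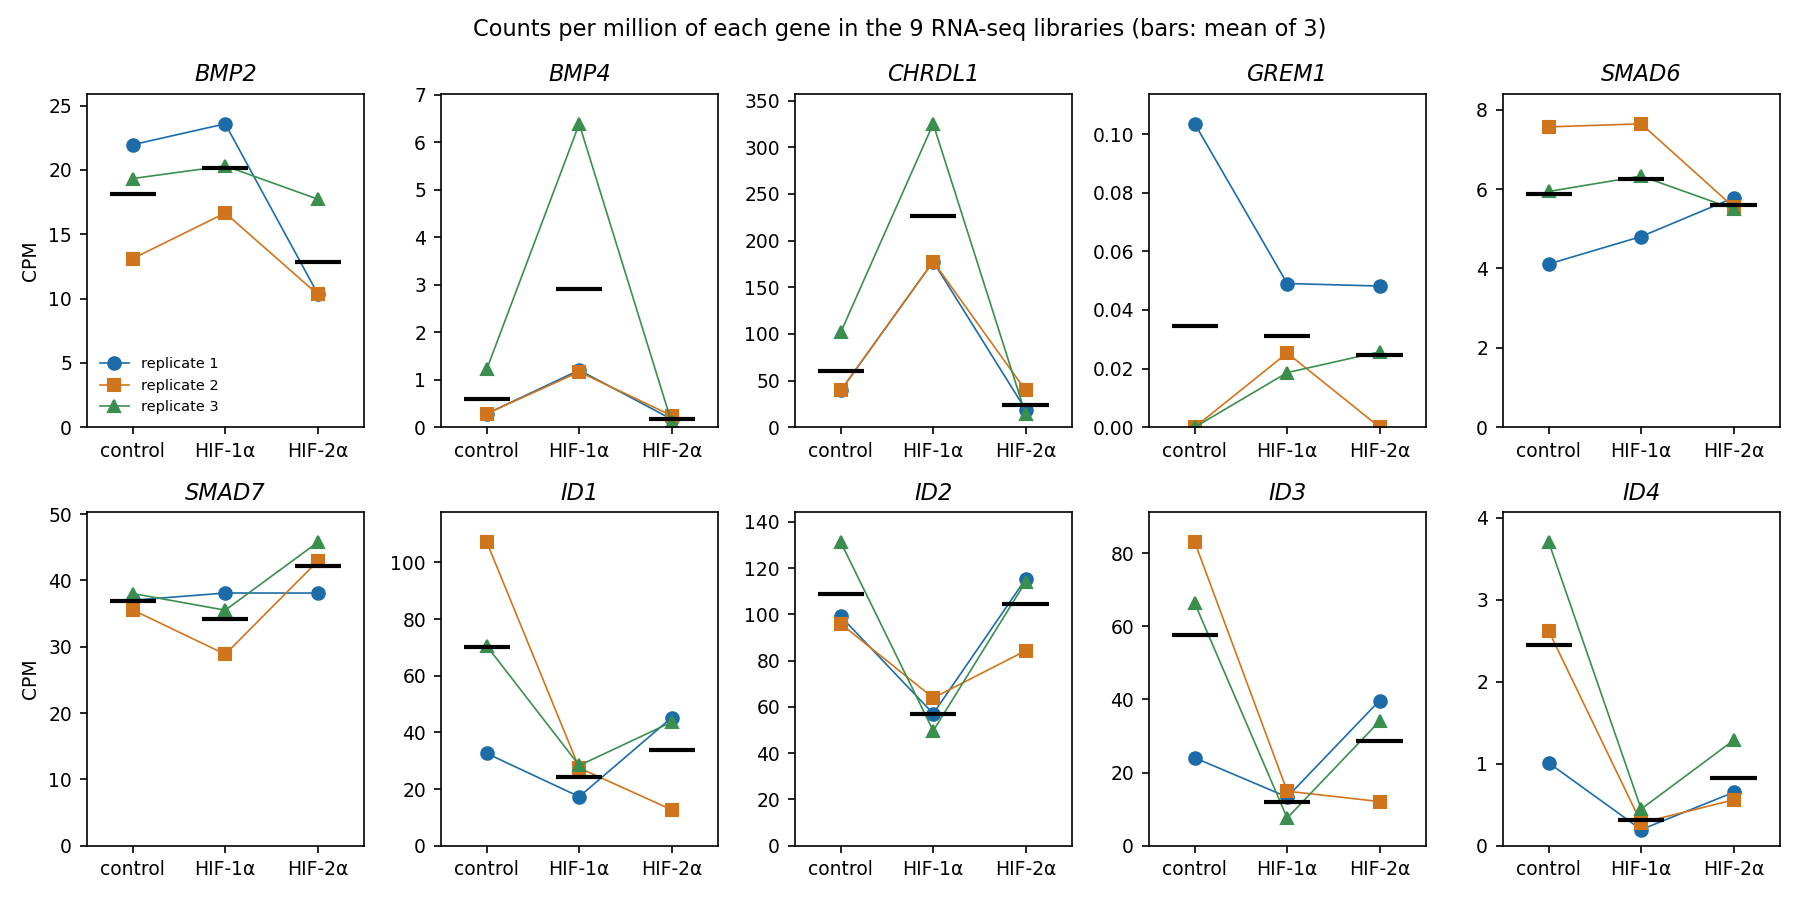
CPM (vertical axis, linear, from 0) of the 10 genes in the 3 RNA-seq libraries of each pool (horizontal axis), with points joined by replicate number and black bars for the mean of 3. All HIF-1α libraries lie below all control libraries for ID1 to ID4 and above them for CHRDL1, while for BMP4 replicate 3 lies above the others in the control and HIF-1α pools.

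Among the ligands, BMP4 was higher in HIF-1α re-expressing cells in every pair of libraries with the same replicate number, and BMP2 differed little. BMP4, a ligand expressed in many mesenchymal tissues (ENSG00000125378.16, chr14:54416454-54425479), was scarce in all libraries. It had 0.285, 0.285 and 1.23 CPM in control replicates 1, 2 and 3, from 11, 10 and 47 counts. In HIF-1α re-expressing cells it had 1.20, 1.16 and 6.39 CPM, from 49, 46 and 343 counts. Control replicate 3 therefore overlapped the HIF-1α libraries, and within pairs the ratios to control were 4.22, 4.09 and 5.21. The fitted log2 difference was 2.28 (SE 0.83), and it was 0.98 (SE 0.70) without HIF-1α replicate 3 and 3.34 (SE 0.91) without control replicate 3, the control library with the highest HIF1A level. In HIF-2α overexpressing cells BMP4 had 0.169, 0.244 and 0.103 CPM, below all control libraries, from 7, 7 and 4 counts. The log2 difference of -1.80 (SE 0.89) from control did not pass the test (edgeR quasi-likelihood test, Benjamini-Hochberg adjusted p = 0.840). BMP2, a ligand that is also a potent bone inducer (ENSG00000125845.7, chr20:6748333-6760893), had 22.0, 13.1 and 19.3 CPM in control cells, 23.6, 16.7 and 20.3 in HIF-1α re-expressing cells and 10.4, 10.3 and 17.7 in HIF-2α overexpressing cells. The control and HIF-1α ranges overlapped, the HIF-1α library was the higher in 3 of 3 pairs with ratios of 1.07, 1.27 and 1.05, and the log2 difference was 0.15 (SE 0.30), and the HIF-2α libraries were lower than control in 3 of 3 pairs with overlapping ranges. That difference was -0.50 on the log2 scale (SE 0.31, edgeR adjusted p = 0.842).

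Among the antagonists, CHRDL1 was higher in every HIF-1α library than in every control library and GREM1 was barely detected. CHRDL1 was chosen on this contrast, in which 24.1% of all genes tested had no overlap between the pools, in either direction. CHRDL1, which encodes a Chordin-like protein that binds BMP4 (ENSG00000101938.15, chrX:109917084-110039047), had 39.3, 39.5 and 101.9 CPM in control cells and 177.5, 177.5 and 325.1 CPM in HIF-1α re-expressing cells. The lowest HIF-1α library was above the highest control library, and the ratios within pairs were 4.51, 4.50 and 3.19. The fitted log2 difference was 1.91 (SE 0.50), and 2.52 (SE 0.49) without control replicate 3, in which CHRDL1, BMP4 and HIF1A were each the highest of the control libraries. Whether the HIF1A level of that library had a part in these values was not tested. In HIF-2α overexpressing cells CHRDL1 had 18.8, 39.5 and 13.9 CPM, below the control library of the same number in pairs 1 and 3 and level with it in pair 2 to the digits shown. The log2 difference of -1.33 (SE 0.49) did not pass (edgeR adjusted p = 0.819, and 0.297 with the replicate number as a block). GREM1, which encodes Gremlin (ENSG00000166923.12, chr15:33010205-33037307), had 4, 0 and 0 counts in control cells, 2, 1 and 1 in HIF-1α re-expressing cells and 2, 0 and 1 in HIF-2α overexpressing cells. These counts are too few for any comparison, and no difference in GREM1 was detectable at this depth.

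The inhibitory SMADs differed little between control and HIF-1α re-expressing cells. SMAD6, which blocks BMP receptors and SMAD1 (ENSG00000137834.15, chr15:66994574-67075187), had 4.11, 7.57 and 5.94 CPM in control cells, 4.80, 7.64 and 6.33 in HIF-1α re-expressing cells and 5.78, 5.55 and 5.50 in HIF-2α overexpressing cells. SMAD7, which restrains TGF-β as well as BMP receptors (ENSG00000101665.10, chr18:46446223-46477335), had 37.0, 35.5 and 38.0 CPM in control cells, 38.1, 28.9 and 35.5 in HIF-1α re-expressing cells and 38.1, 42.9 and 45.7 in HIF-2α overexpressing cells. The ranges of control and HIF-1α re-expressing cells overlapped for both genes, with log2 differences of 0.09 (SE 0.32) for SMAD6 and -0.11 (SE 0.19) for SMAD7. In HIF-2α overexpressing cells every SMAD7 library was above every control library, by a log2 difference of 0.20 (SE 0.19) that did not pass the test (edgeR adjusted p = 0.871). For SMAD6 that difference was -0.07 (SE 0.32, edgeR adjusted p = 0.981).

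All 4 ID genes were lower in every HIF-1α library than in every control library. Between these pools 24.1% of all genes tested had no overlap, in either direction, and the ID genes were chosen with this contrast known. ID3 (ENSG00000117318.9, chr1:23884417-23885992) had 24.0, 83.0 and 66.3 CPM in control cells and 13.3, 14.9 and 7.58 CPM in HIF-1α re-expressing cells, with ratios within pairs of 0.554, 0.180 and 0.114. Its log2 difference was -2.28 (SE 0.54). ID1 (ENSG00000125968.9, chr20:30193086-30194318) had 32.6, 107.1 and 70.5 CPM in control cells and 17.3, 27.4 and 28.3 in HIF-1α re-expressing cells, a log2 difference of -1.52 (SE 0.52). For both genes control replicate 1 was the lowest control library, and the difference within pair 1 was the smallest of the 3. ID2 (ENSG00000115738.10, chr2:8818975-8824591) had 99.1, 95.9 and 131.1 CPM in control cells and 57.1, 63.9 and 49.7 in HIF-1α re-expressing cells, the smallest difference of the family and the one with the smallest error, at -0.94 (SE 0.22). ID4 (ENSG00000172201.12, chr6:19837601-19842428) had 1.01, 2.62 and 3.70 CPM in control cells and 0.196, 0.278 and 0.447 in HIF-1α re-expressing cells, from 8 to 24 counts. Its log2 difference of -2.97 (SE 0.61) was the largest in size of the 9 genes fitted.

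In HIF-2α overexpressing cells the ID genes did not follow a common course. ID1 had 45.2, 12.7 and 43.6 CPM and ID3 had 39.7, 12.1 and 34.1 CPM, so that both were above control in pair 1 and below it in pairs 2 and 3. ID2 had 115.2, 84.2 and 114.0 CPM, of which replicate 2 lay below the control range and the others within it. ID4 had 0.650, 0.558 and 1.29 CPM and was below control in 3 of 3 pairs, with overlapping ranges. None of the 4 differences from control passed the test. They were -1.05 (SE 0.51) for ID1, -0.06 (SE 0.21) for ID2, -1.01 (SE 0.52) for ID3 and -1.55 (SE 0.58) for ID4 on the log2 scale, with edgeR adjusted p of 0.837, 0.978, 0.842 and 0.823. With the replicate block the adjusted p for ID4 was 0.162. The 3 control libraries are the same as in the comparison with HIF-1α re-expressing cells.

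Set against all genes tested, 5 of the 9 genes had no overlap between HIF-1α and control libraries, where 24.1% of all genes had none, and since the genes were chosen on this contrast nothing is read from the count. Between HIF-2α overexpressing and control cells 2 of the 9 (BMP4 and SMAD7) had no overlap, against 11.2% of all genes. For the comparison of HIF-1α re-expressing with control cells, 0% of the 14225 genes passed an adjusted p of 0.05 in edgeR without a block, although at an unadjusted p under 0.05 there were 1586 with a higher level and 1171 with a lower one. DESeq2 called 751, and 7.96% passed in edgeR when the replicate number was added as a block. For HIF-2α overexpressing against control cells 0% passed in edgeR, and an unadjusted p under 0.05 was reached by 476 with a higher level and 362 with a lower one. DESeq2 called 65 there, and 0.267% passed with the block. None of the 9 genes passed in the HIF-2α comparison under any of 14 other settings.

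**Figure D2:**
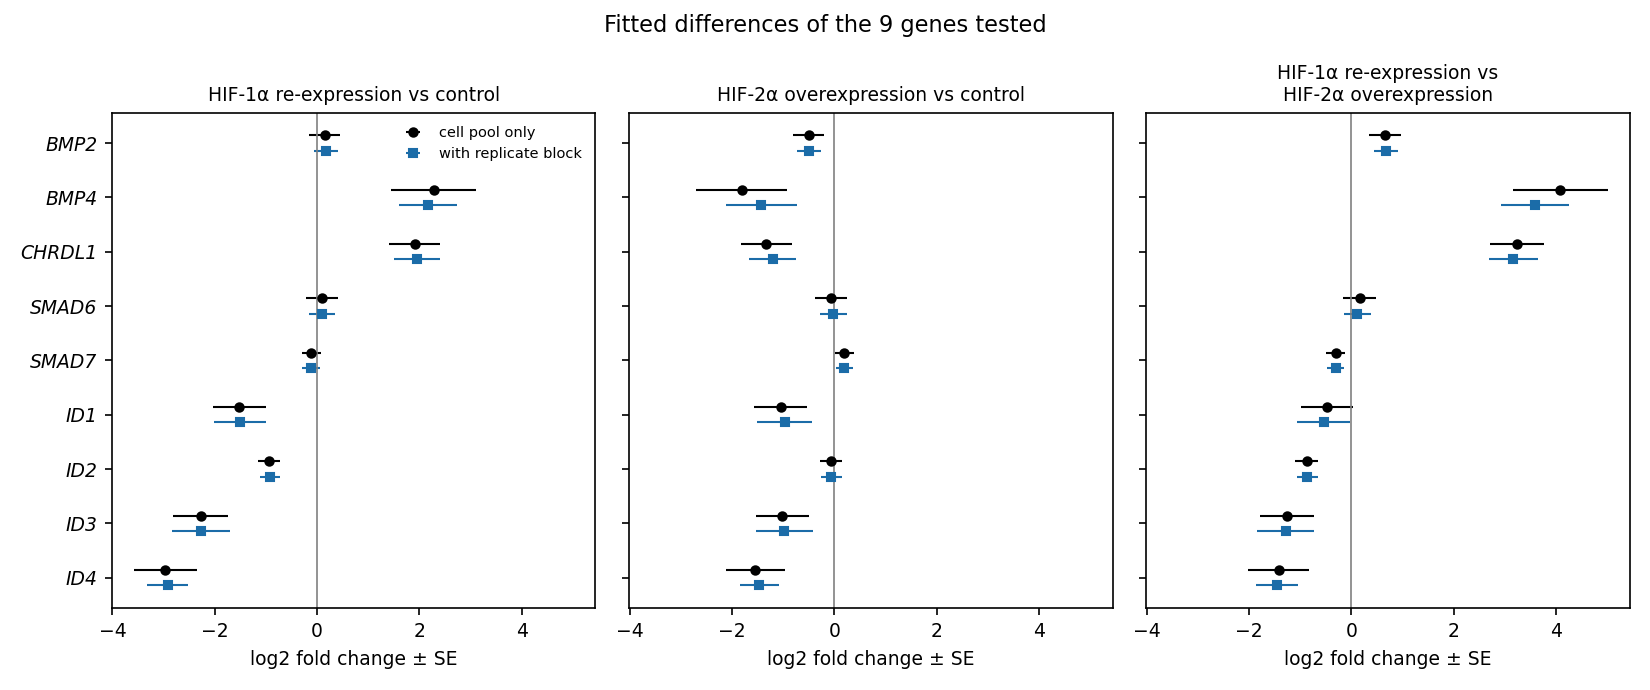
Log2 fold change with its SE (horizontal axis) of the 9 genes that passed the filter (vertical axis) in the 3 comparisons, from edgeR without a block (black circles) and with the replicate number as a block (blue squares). The 4 ID genes lie left of 0 and CHRDL1 and BMP4 right of 0 for HIF-1α re-expression against control, and the values of both fits lie close together, at -2.28 and -2.26 for ID3.

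HIF-1α re-expressing and HIF-2α overexpressing cells were also compared directly. This comparison uses the HIF-1α libraries that chose ID3, BMP4 and CHRDL1, so their differences of -1.26 (SE 0.52), 4.09 (SE 0.93) and 3.24 (SE 0.53) on the log2 scale are given without a test. Of the other 6, ID2 was lower in the HIF-1α libraries in 3 of 3 pairs with no overlap, by -0.88 (SE 0.22) on the log2 scale. It did not pass with the cell pool alone (edgeR adjusted p = 0.116) and passed with the replicate block (adjusted p = 0.0417) and in DESeq2 (adjusted p = 0.0119). In the fit with the block it ceased to pass when HIF-1α replicate 1 or 3, control replicate 2 or any 1 HIF-2α library was left out. ID4 was also lower in 3 of 3 pairs without overlap, by -1.42 (SE 0.60), and did not pass in either fit (adjusted p = 0.334, and 0.0697 with the block). BMP2 was higher in 3 of 3 pairs, by 0.66 (SE 0.31), with overlapping ranges (adjusted p = 0.386, and 0.127 with the block). ID1 at -0.48 (SE 0.51), SMAD6 at 0.16 (SE 0.32) and SMAD7 at -0.31 (SE 0.19) did not pass. In this comparison 0.0492% of genes passed with the cell pool alone and 5.93% with the block, and 4 of the 9 genes against 19.2% of all genes had no overlap between the pools. These were ID2, ID4, BMP4 and CHRDL1, of which BMP4 and CHRDL1 were chosen on the same HIF-1α libraries, so nothing is read from this count.

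The other genes of the pathway were taken as lists. No gene of the 7 lists passed in any of the 3 comparisons with the cell pool alone, and the calls that follow are those of the fit with the replicate block. Of all genes tested, 7.96% passed in that fit after HIF-1α re-expression, 0.267% after HIF-2α overexpression and 5.93% between the HIF pools. In lists this short, nothing is read from the number of calls. After HIF-1α re-expression 1 of 9 tested receptors and co-receptors rose and none fell. This was ACVR2B, a type II receptor for activins and BMPs, with a log2 change of 1.31 (SE 0.29, edgeR adjusted p = 0.0394 with the block). Each of the 6 calls given here for HIF-1α re-expression, in this and the next paragraph, was lost when HIF-1α replicate 2, HIF-2α replicate 1, control replicate 2 or control replicate 3 was left out of the fit with the block. Leaving out HIF-1α replicate 1 or 3 also ended all of them but that of LTBP2, and leaving out HIF-2α replicate 3 those of ACVR2B, BAMBI, LTBP1 and LTBP4. BAMBI was also lost without HIF-2α replicate 2. List medians here and below are from the fit with the cell pool alone. The receptor list had a median of 0.24 on the log2 scale against 0.04 for all genes. Of 10 tested secreted antagonists and modulators 1 fell, BAMBI, a decoy receptor without a kinase domain, by 0.75 on the log2 scale (SE 0.18, adjusted p = 0.0440 with the block), and none rose, with a median of 0.51. In DESeq2 the call of this list was another gene, NOG, which encodes Noggin and was higher (log2 difference 2.74, DESeq2 adjusted p = 0.00667), and BAMBI was not called. NOG had 1.22 to 3.05 CPM in control cells and 4.66 to 25.4 CPM in HIF-1α re-expressing cells, without overlap, and its edgeR adjusted p was 0.162, and 0.0569 with the block. Of the 6 calls with the block, DESeq2 also made those of ACVR2B, LTBP1 and LTBP2. Of 9 tested BMP targets 1 rose, the matrix gene TNC, with a log2 change of 1.33 (SE 0.33, adjusted p = 0.0452 with the block), and none fell, with a median of -0.28. TNC had 245.0, 55.5 and 44.6 CPM in control and 353.2, 213.5 and 126.4 CPM in HIF-1α re-expressing cells, so that the ranges overlapped and each pair moved the same way.

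Of the 17 genes of the TGF-β and activin arm 3 rose and none fell after HIF-1α re-expression, where 7.96% of all genes passed with the block. All 3 encode latent TGF-β binding proteins, which hold the inactive ligand in the matrix. With the block the log2 change was 2.18 for LTBP1 (SE 0.53, adjusted p = 0.0431), 1.65 for LTBP2 (SE 0.22, adjusted p = 0.0264) and 1.24 for LTBP4 (SE 0.25, adjusted p = 0.0360). LTBP1 had 2.36 to 6.88 CPM in control cells and 16.0 to 21.3 CPM in HIF-1α re-expressing cells, without overlap. The median of this list was 0.61. The 2 tested ligands, the 10 SMAD proteins and regulators and the 3 tested bHLH partners of ID proteins had no call in either fit. The largest differences there were 0.62 (SE 0.54) for BMP8B, whose reads can be confused with those of its close paralog BMP8A, 1.67 (SE 0.73) for SMAD9 and 0.42 (SE 0.32) for TCF12, an E protein.

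After HIF-2α overexpression no tested gene of the ligands, receptors, SMAD proteins and regulators, antagonists, targets or bHLH partners passed in either edgeR fit, and the median of the 9 targets was -0.51 against -0.02 for all genes. The gene with the largest difference in each of these lists follows. ATOH8, a BMP-responsive bHLH gene, was at -2.87 (SE 0.88, edgeR adjusted p = 0.730, and 0.125 with the block) and was called lower by DESeq2 (adjusted p = 0.0494). NOG was at 1.83 (SE 0.76, adjusted p = 0.837). BMP8B was at 0.76 (SE 0.54), the co-receptor gene ENG at -0.83 (SE 0.52), SMAD9 at 1.08 (SE 0.72) and TCF4, an E protein, at 0.37 (SE 0.33), and none of these passed in edgeR or DESeq2.

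Between HIF-1α re-expressing and HIF-2α overexpressing cells, 5.93% of all genes passed with the block. Of the 9 tested BMP targets, 3 were higher in the HIF-1α libraries with the block and none was lower. These were the transcription factors GATA3 at 2.86 (SE 0.43, edgeR adjusted p = 0.0081) and RUNX2 at 0.90 (SE 0.20, adjusted p = 0.0345), and TNC at 2.04 (SE 0.34, adjusted p = 0.0118). Of the TGF-β and activin arm, 3 of 17 were higher, LTBP2 at 1.70 (SE 0.22, adjusted p = 0.00458), LTBP3 at 1.69 (SE 0.36, adjusted p = 0.0289) and INHBA, an activin subunit, at 1.36 (SE 0.29, adjusted p = 0.0302). LTBP2 passed whichever library was left out. GATA3 was lost without HIF-2α replicate 3 and TNC without HIF-2α replicate 1. INHBA was lost without HIF-1α replicates 1 or 2 or HIF-2α replicates 2 or 3, LTBP3 without any HIF-1α library or HIF-2α replicates 1 or 3, and RUNX2 without any HIF library or control replicate 2. DESeq2 also called GATA3 and LTBP2. The other 5 lists had no call in edgeR, and the largest differences with the cell pool alone were -2.29 (SE 0.62) for TLL1, a protease that cleaves Chordin, 0.85 (SE 0.52) for ENG, 0.59 (SE 0.71) for SMAD9, which was at -0.05 with the block, -0.14 (SE 0.54) for BMP8B and -0.14 (SE 0.21) for TCF3. TLL1 was not called by edgeR (adjusted p = 0.142, and 0.0576 with the block) and was called lower by DESeq2 (adjusted p = 0.0183). GATA3 and TLL1 were low, at most 3.43 and 1.77 CPM in any library.

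**Figure D3:**
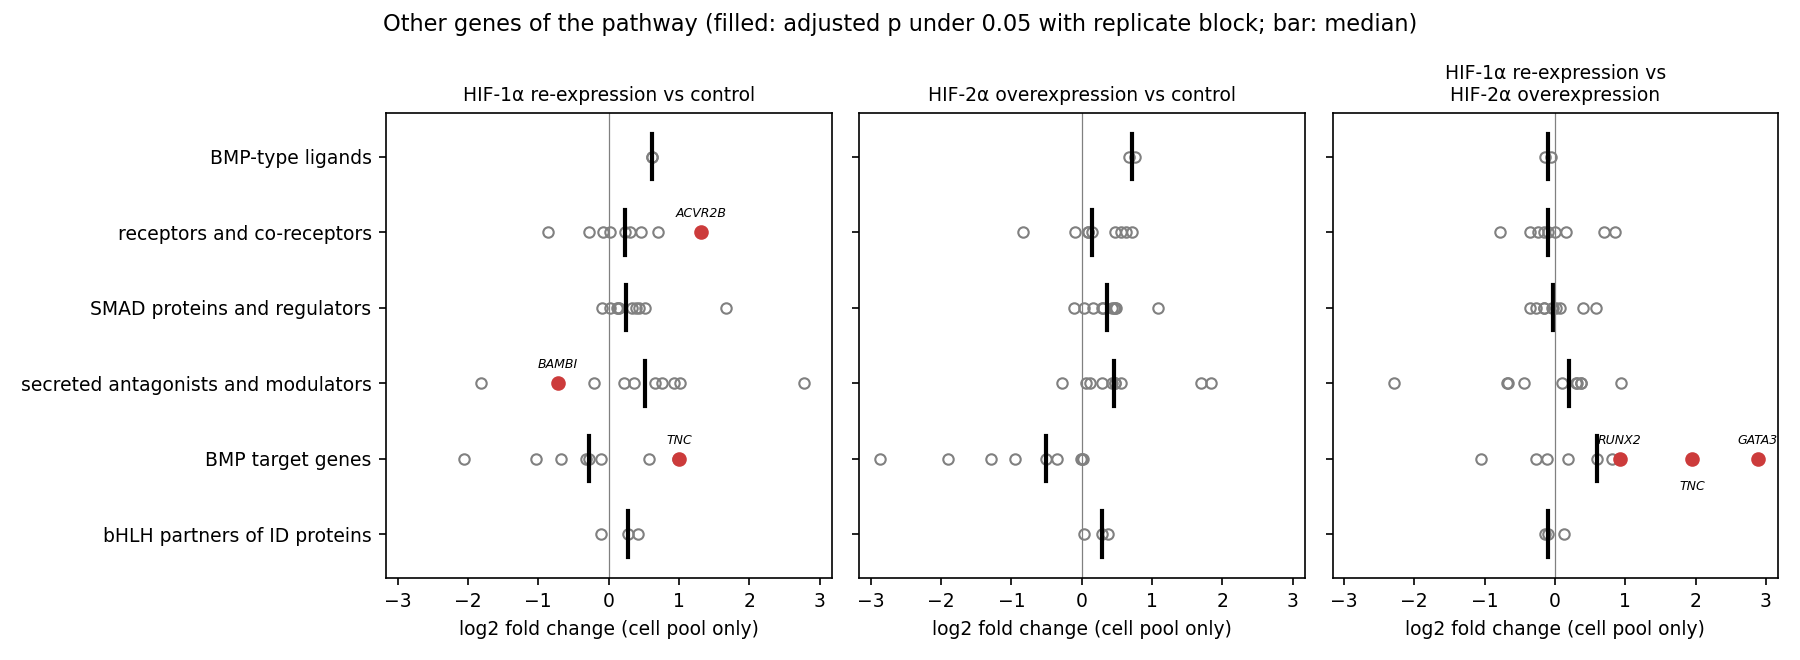
Log2 fold change with the cell pool alone (horizontal axis) of every tested gene of 6 pathway lists, without the TGF-β and activin arm, (vertical axis) in the 3 comparisons, with filled points for an adjusted p under 0.05 with the replicate block and black bars for list medians. The filled points are ACVR2B, BAMBI and TNC for HIF-1α re-expression against control and GATA3, TNC and RUNX2 between the HIF pools, and there is none for HIF-2α overexpression against control.

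The genes most like ID3 over the 9 libraries were listed by Pearson correlation of log2 CPM among 10669 genes with a mean of at least 5 CPM, as a description, since the libraries share pools and replicate numbers. They were TARBP2 (0.982), INO80E (0.976), DTYMK (0.970), NOC4L (0.966) and YWHAH (0.966). Among the most opposite were FLJ42627 (-0.968), SPRED1 (-0.960), FYCO1 (-0.959) and PARP10 (-0.952). Of the ID genes, ID1 stood at rank 186 (0.880) and ID2 at rank 488 (0.824), and ID4 was under the level required. CHRDL1 stood at rank 8934 (-0.548).

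HIF binding near the 10 genes was read from the 7 peak lists, which hold 1350 to 6572 windows of 2500 bp each, with no score. A peak was near a gene when its midpoint lay within 50 kb of any annotated start site. With 1 library per list there is no test between lists, a missing call may reflect the depth, which is unknown, and a peak says nothing of which gene it acts on. There were 67 such peaks, which fell at 19 sites when touching windows were joined. BMP4, CHRDL1, ID4 and GREM1 had no peak within 100 kb in any list.

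The HIF-1α list of HIF-1α re-expressing cells had a peak near 6 of the 10 genes, where 41.0% of all coding genes had one. The HIF-1β list of the same cells was near the same 6, against 45.9% of coding genes, and the HIF-2α list of these cells was near 2 (ID1 and SMAD7), against 8.16%. In control cells HIF-2α was near 4 (ID1, ID2, BMP2 and SMAD7), against 9.49%, and HIF-1β near 5, against 36.2%. In HIF-2α overexpressing cells HIF-2α was near 5 (ID1, ID2, ID3, BMP2 and SMAD7), against 23.0%, and HIF-1β near 5, against 24.1%. SMAD6 had no HIF-2α peak within 50 kb in any pool, but just beyond this limit a HIF-2α peak of HIF-2α overexpressing cells lay in an intron of SMAD6. Its midpoint was 54.3 kb downstream of the nearest start site.

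**Figure D4:**
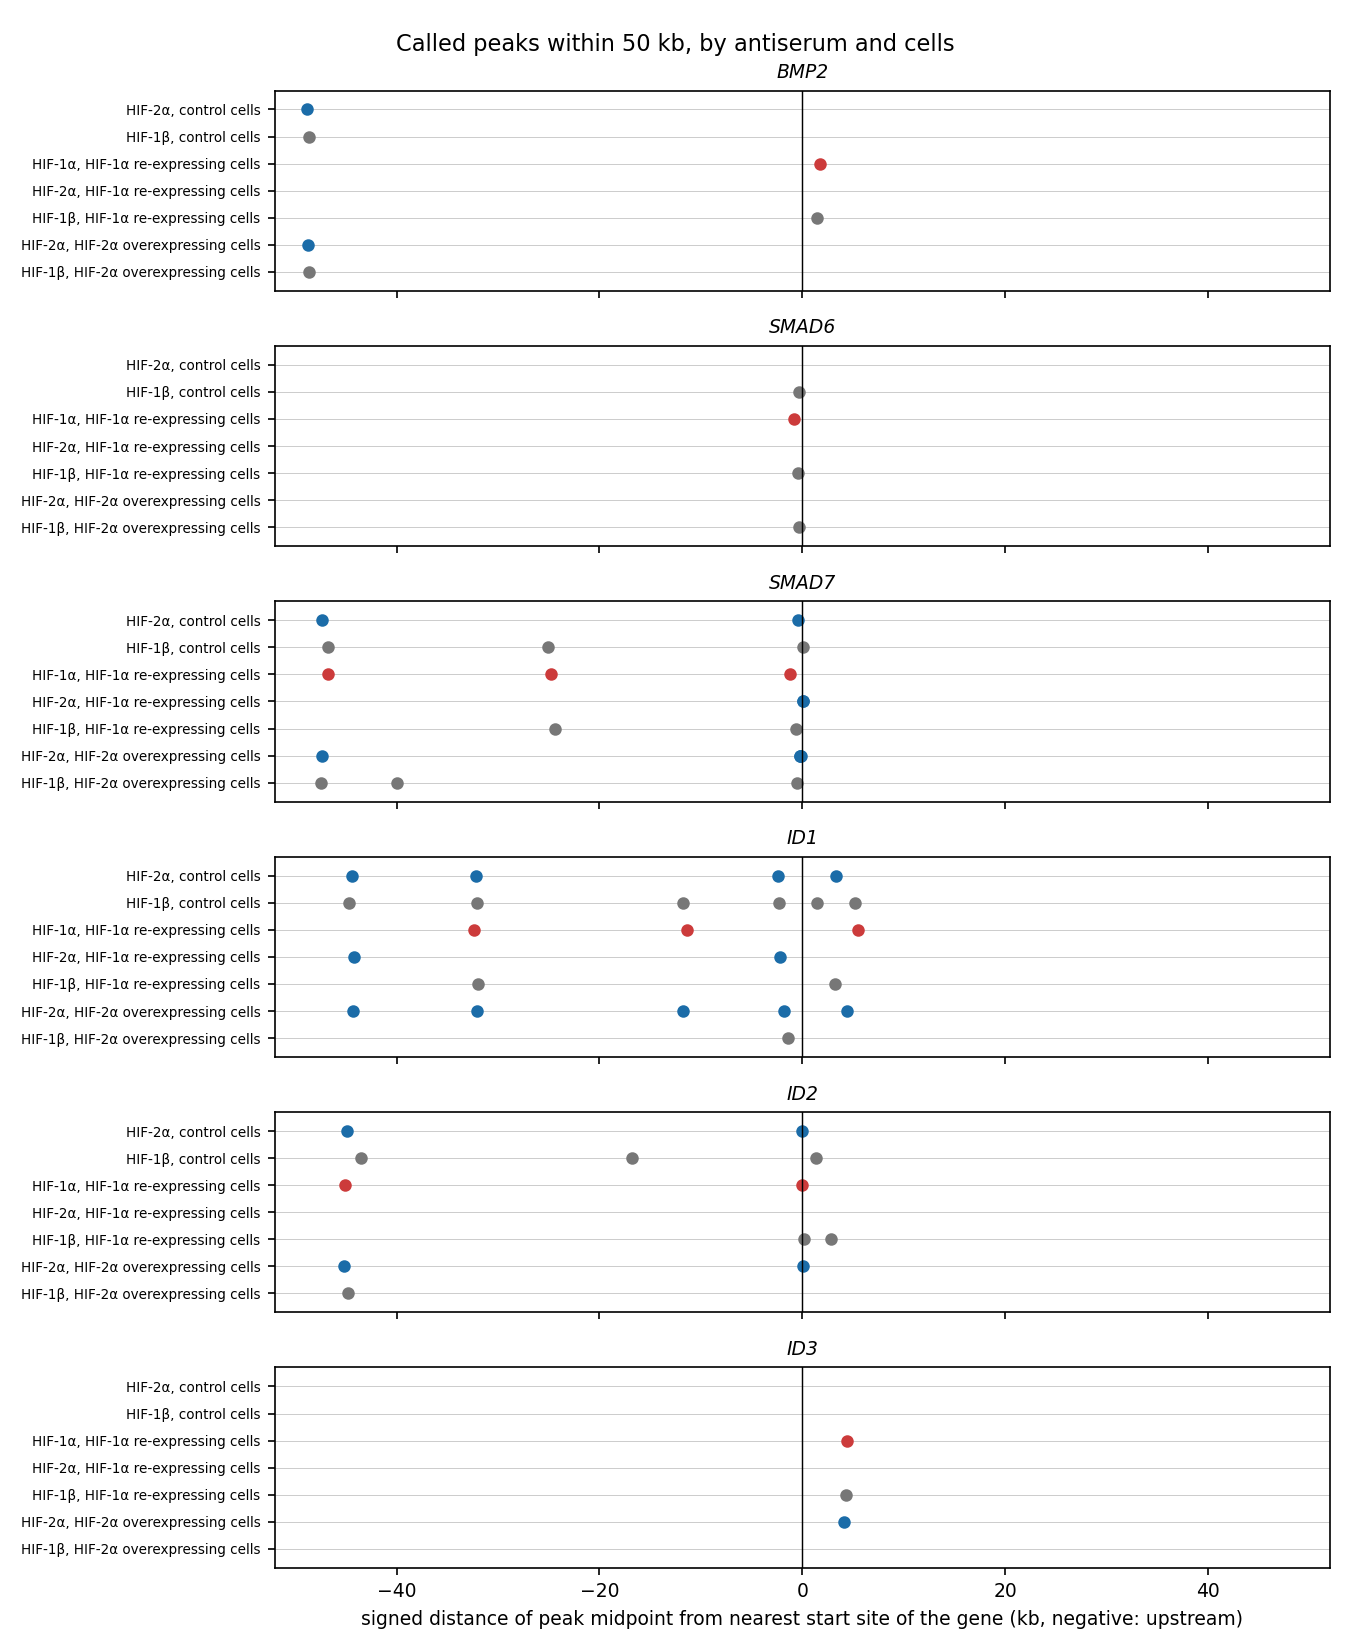
Signed distance in kb (horizontal axis, negative upstream) of each peak midpoint from the nearest start site of BMP2, SMAD6, SMAD7, ID1, ID2 and ID3 (panels), for the 7 peak lists (rows), with red for HIF-1α, blue for HIF-2α and grey for HIF-1β. The single site of ID3 lies 4.08 to 4.36 kb downstream and has no point in the control rows, and the points of BMP2 lie at 1.41 to 1.74 kb downstream in HIF-1α re-expressing cells and at 48.6 to 48.8 kb upstream in the other cells.

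At BMP2 the sites differed with the pool. A site 48.6 to 48.8 kb upstream, at chr20:6698262-6700952 between genes, was called for HIF-2α and HIF-1β in control cells and again for both in HIF-2α overexpressing cells, and for none of the 3 antisera in HIF-1α re-expressing cells. A site in an intron of BMP2, at chr20:6748491-6751319, was called for HIF-1α and HIF-1β in HIF-1α re-expressing cells only. HIF-1α has no peak list in the other pools, where the missing call concerns HIF-2α and HIF-1β. The intronic HIF-1α sequence shown above holds the letters CACGTG, and the upstream HIF-2α sequence holds 1 HRE core. The RNA of BMP2 in control and HIF-1α re-expressing cells overlapped, as given above.

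At SMAD6 a single promoter site, at chr15:66992487-66996250, was called for HIF-1β in all 3 pools and for HIF-1α after its re-expression, with midpoints 0.30 to 0.84 kb upstream of a start site. The HIF-1α sequence shown above holds 2 HRE cores. SMAD7 had 6 sites, 3 of them within 1.2 kb of one of its 8 start sites and 3 from 24.4 to 47.4 kb upstream. The farthest, at chr18:46522811-46525986, was called in 5 lists, among them HIF-2α in control and in HIF-2α overexpressing cells and HIF-1α after re-expression.

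ID3 had 1 site, at chr1:23879955-23882731 beyond the 3′ end of the gene and 4.08 to 4.36 kb from its nearest start site. It was called for HIF-1α and HIF-1β in HIF-1α re-expressing cells and for HIF-2α in HIF-2α overexpressing cells, and in neither list of control cells. The 300 bp around the HIF-1α midpoint hold 1 HRE core and those around the HIF-2α midpoint hold 3, of which 2 overlap in CACGTG. The RNA of ID3 was lower than in every control library in all HIF-1α libraries and, of the HIF-2α libraries, in replicate 2 alone.

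ID1 had 5 sites, of which the nearest upstream site, at chr20:30189473-30192972 with midpoints 1.36 to 2.36 kb from the start, was called for HIF-2α in all 3 pools and for HIF-1β in control and HIF-2α overexpressing cells, and not for HIF-1α. Downstream, at chr20:30193284-30199856, peaks of 5 lists, HIF-1α included, were joined in a chain of touching windows, in which not every window touched every other. The 2 sites farthest upstream, 32.0 to 44.6 kb away, lie in introns of HM13, the nearest coding gene, and partly in its antisense HM13-AS1. ID2 had 4 sites. That at its start, at chr2:8817694-8823362, was called for HIF-2α and HIF-1β in control cells, for HIF-1α and HIF-1β in HIF-1α re-expressing cells and for HIF-2α in HIF-2α overexpressing cells, over exons and introns of ID2 and of the antisense ID2-AS1. The HIF-1α window there touched only that of HIF-1β in control cells and shared no base with either HIF-2α window. Its midpoint lay 3.14 kb downstream of the 5′ end of ID2. A site 43.5 to 45.2 kb upstream was called in 5 lists, and no HIF-2α peak near ID2 was listed in HIF-1α re-expressing cells.

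The HRE core was searched as ACGTG and GCGTG on both strands within 150 bp of each midpoint and was present in 43 of the 67 peaks. By list it was in 8 of 11 peaks near these genes for HIF-1α, where 65.4% of all peaks of the list had it, and in 6 of 9 for HIF-1β of the same cells, against 68.2%. For HIF-2α it was in 6 of 9 in control cells, against 59.7%, in 3 of 4 after HIF-1α re-expression, against 64.6%, and in 9 of 13 in HIF-2α overexpressing cells, against 45.7%. For HIF-1β it was in 6 of 14 in control cells, against 57.2%, and in 5 of 7 in HIF-2α overexpressing cells, against 66.0%. Of the 67 peaks, 64 shared at least 1 base with a peak of another list, so that these counts are not independent of one another.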

How the data were processed

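RNA-seq was analysed in 9 libraries of 786-O cells and ChIP-seq in 7. The expression table deposited by the authors holds unnormalized counts, 1 row per symbol, made by alignment to GRCh37 with TopHat and Bowtie, removal of reads that mapped more than once and HTSeq on UCSC genes. The kit was directional, and whether the counting used strand is not given in the sources used here. For ChIP-seq the authors deposited peak positions only, from reads aligned with BWA and peaks called by both MACS and T-PIC. Depth behind a peak is unknown. All columns of the count table were assigned to samples by name.

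Counts were fitted in R 4.3.3 with edgeR 4.0.16 (quasi-likelihood test, TMM factors, filterByExpr, all 9 libraries, cell pool as covariate). Benjamini-Hochberg adjustment ran over 14225 genes, with a threshold of 0.05. CPM were computed from the totals after TMM. No test was applied to the 10 genes in the contrast that chose them. Same-numbered libraries of different pools had residual correlations across genes of 0.377 to 0.65 in all 9 pairs, and others of -0.451 to 0.021 in 18, so the numbers pair the libraries, and the value with the replicate number as a block is given where it changes a call. The fits were checked on simulated counts. DESeq2 1.42.0, RLE factors, no filter, only the 6 libraries compared and each library left out were alternatives, and the block with each library left out was added after seeing the data.

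Start sites were those of GENCODE v44 lifted to GRCh37, and sequence was read from GRCh37. Levels per kb use its exon length, not the authors' UCSC genes. The 10 genes and the pathway lists were chosen with earlier results of these data known. Named are these genes, HIF1A and EPAS1, per list up to 4 genes past the threshold in either fit and otherwise the 1 with the largest log2 fold change, and the 5 genes most and least like ID3. TNC and LTBP1 levels, NOG after HIF-1α re-expression and the marker genes were picked for display after their values were seen. Some results that this rule names are not reported here.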

Additional observations from a re-analysis of the deposited data

Results flagged for a closer look

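BMP2 and BMP4 were flagged because all 3 pairs moved one way after HIF-1α re-expression and the opposite way after HIF-2α overexpression, relative to the same 3 control libraries. For BMP2 the difference between the effects was 0.66 on the log2 scale (SE 0.31) and did not pass the test (edgeR adjusted p = 0.386, and 0.127 with the replicate block). Its ratios to control were 1.07, 1.27 and 1.05 after HIF-1α re-expression and 0.472, 0.787 and 0.917 after HIF-2α overexpression. For BMP4 the difference was 4.09 (SE 0.93), without a test since the gene was chosen on the HIF-1α libraries. It was 2.78 without HIF-1α replicate 3, in which BMP4 had 343 of its counts, against 4 to 7 counts in the HIF-2α libraries. Pools of 3 libraries were not examined for outlying libraries.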

How the results depend on the processing

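Counts of calls depended strongly on the setting. For HIF-1α re-expression against control 0 genes passed without a block, 1132 with the replicate block and 751 in DESeq2. For HIF-2α overexpression against control the counts were 0, 38 with the block, 65 in DESeq2, 1 without the filter on low counts and 2 with only the 6 libraries compared. Between the 2 HIF pools they were 7, 843 with the block, 650 in DESeq2, 82 without the filter and 0 with only the 6 libraries. Leaving out 1 library without a block gave 0 in the first comparison, 0 to 2 in the second (2 without HIF-1α replicate 2) and 0 to 29 in the third (29 without HIF-1α replicate 1, 14 without control replicate 3). The block with a library left out was chosen after seeing the data. In the first comparison it gave 211 and 34 calls without HIF-1α replicates 1 and 3, 827 and 503 without HIF-2α replicates 2 and 3, 2408 without control replicate 1 and 0 without each of the other 4 libraries. In the second it gave 19, 26 and 94 without HIF-1α replicates 1, 2 and 3, 10, 24 and 6 without the HIF-2α replicates and 78, 2 and 7 without the control replicates, in the same order. In the third the counts in that order were 592, 324 and 481, then 402, 526 and 167, then 890, 628 and 729.

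For the 9 genes fitted, the sign of the HIF-1α difference from control was the same in every planned setting except for BMP2, which ran from -0.05 to 0.31, and SMAD6, which ran from -0.12 to 0.30. Only BMP4 moved beyond the spread between replicates, to 0.98 without HIF-1α replicate 3 and 3.34 without control replicate 3. Of the 9 genes' tests, the block changed the call of ID2 between the HIF pools and no other. Small differences turned direction. For HIF-2α against control, ID2 ran from -0.14 to 0.10 over left-out libraries (0.07 without HIF-2α replicate 2) and was 0.078 and 0.108 with the block and without HIF-2α replicate 2 or control replicate 3. SMAD6 ran from -0.27 to 0.16, and with the block was 0.167, 0.036, 0.102 and 0.011 without HIF-2α replicates 2 and 3 and control replicates 2 and 3. Between the HIF pools SMAD6 ran from -0.04 to 0.31 and was -0.084 with the block and without HIF-2α replicate 2, and ID1 was 0.19 with the block and without HIF-2α replicate 1. There BMP8B ran from -0.74 to 0.40 (0.13 and 0.01 without HIF-1α replicates 1 and 2), and with the block was 0.033 without HIF-1α replicate 2 and 0.026 without HIF-2α replicate 3. SMAD9 ran from -0.92 to 1.08 and was -0.045 with the block, and then -0.966, -0.789, -0.084, -0.159 and -0.060 without HIF-1α replicate 2, HIF-2α replicate 2 and control replicates 1, 2 and 3. The causes were not tested. With a limit of 10 kb in place of 50 kb, 3 and not 5 of the 10 genes had a HIF-1β peak in HIF-2α overexpressing cells. The share of all coding genes fell there too, from 24.1% to 11.7%. Counts also fell from 5 to 4 for HIF-2α in these cells, and in control cells from 4 to 3 for HIF-2α and from 5 to 4 for HIF-1β. For each of these lists the share of all coding genes was lower as well. The lists of HIF-1α re-expressing cells kept their counts. Low counts limit ID4 and BMP4, and GREM1 could not be compared.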

Other observations

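Near the 10 genes the AP-1 letters TGACTCA, read on either strand, or TGAGTCA lay within 150 bp of the midpoint in 11 of the 67 peaks, where 4.96% to 27.5% of all peaks had them, depending on the list.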
